A study of Macaca mulatta with 12 samples.

Results

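The widest age contrast of this series sets the prefrontal cortex of fetal rhesus macaques well before birth against that of juveniles. The early fetal group held 3 fetuses, at 72, 57 and 53 days before birth, and the juvenile group 4 animals, aged 182, 353, 479 and 831 days. These 7 arrays, 1 per animal, were taken from 12 by the ages on the labels alone; the 5 arrays between 42 days before birth and 24 days of age entered neither the means nor the spread, and serve below only as a description of the time between. All animals were male Macaca mulatta from 1 animal center, had died suddenly for reasons unrelated to the study, and carried no named allele or treatment. Total RNA of the superior frontal gyrus, a fold of the prefrontal cortex, was measured on an Affymetrix array designed for human transcripts (Human Gene 1.0 ST). The interval between death and dissection was not given in the sources used here. No label ties animals to a litter or a batch. The p-values set a difference only against the spread between these animals, which includes their differences in age within each group.

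Over this span the primate cortex passes from a tissue whose neurons are still settling in and sending out axons to one that signals through working synapses. Newly placed neurons express cytoskeletal and adhesion proteins of migration and axon growth, while mature neurons replace them with vesicle, receptor and ion channel proteins. Astrocytes mature over the same period, and oligodendrocytes wrap axons in myelin, most of it after birth. The contrast asks which genes differ between the ends of this path and by how much, with no array from the days around birth.

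The deposited table held 9630 rows of log values, of which 8848 carried 1 gene symbol, giving 8785 genes. Array medians lay between 3.98 and 4.38 log units, lowest in the 72-day fetus and highest in the 479-day juvenile, and the 57-day fetus stood next highest at 4.32. Correlations across rows were 0.965 to 0.981 among the fetuses, 0.953 to 0.971 among the juveniles, and 0.855 to 0.895 between the groups. The base of the log is not stated; it was read as 2, so a difference of 1 log unit is 2-fold only under that reading. Precision is limited by the number of animals. The tissue is bulk, so fewer cells of a type and less RNA per cell cannot be told apart in anything that follows.

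Differences are given as juvenile mean minus early fetal mean in log units, with the standard error of the limma model, and a row is said to be called, to have risen or to have fallen where its Benjamini-Hochberg adjusted p over all 9630 rows lay under 0.05. In total 2456 rows were called, 1418 higher in juveniles (14.7% of all rows) and 1038 lower (10.8%). Of these, 1061 differed by at least 1 log unit, 662 of them higher and 399 lower. At 2 log units or more, 79 rows were higher and 45 lower, and at 3 or more 15 were higher and 12 lower. Independently of any model of the spread, all 4 juveniles lay above all 3 fetuses in 1787 rows (18.6%) and below them in 1596 rows (16.6%). The median difference over all rows was 0.04, the quartiles were -0.30 and 0.40, and the range ran from -3.65 to 5.37. Without the 53-day fetus 1504 rows were called, without the 72-day fetus 1671, and without the highest-median array of each group (57 days before birth and 479 days) 2248, of which 1461 were higher and 787 lower. With both the 53-day fetus and the 182-day juvenile left out, 1052 rows were called, 591 higher and 461 lower. Quantile normalization and array median centring raised the called rows from 2456 to 3515 and 3304. They moved the split of calls from 57.7% higher to 48.8% and 47.9% higher.

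Among the genes that rose most were an astrocyte enzyme, the main myelin protein, an opioid peptide precursor and several regulators of neuronal signalling. In the value lists that follow, fetuses stand in the order 72, 57 and 53 days before birth and juveniles in the order 182, 353, 479 and 831 days. ETNPPL, which breaks down phosphoethanolamine and is made by astrocytes, read -0.05, 0.96 and -0.17 in the fetuses and 4.96, 5.51, 5.71 and 6.27 in the juveniles. Every juvenile lay far above every fetus, and the oldest juvenile was the highest. Its difference was 5.37 ± 0.34 (adjusted p = 1.646e-05), 41.2-fold if the base is 2.

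MBP, a structural protein of compact myelin, read 1.70, 3.07 and 1.78 before birth and 5.93, 6.92, 7.75 and 5.81 after it. The spread among juveniles was wide, with the oldest animal the lowest and the 479-day animal the highest, yet no juvenile came near a fetus (4.42 ± 0.48, adjusted p = 0.0001858). PDYN, the precursor of dynorphin peptides, read 0.38, 0.59 and 1.08, then 4.18, 4.36, 5.13 and 5.32. The older pair of juveniles was the higher pair, and the difference was 4.07 ± 0.30 (adjusted p = 3.435e-05). TESPA1, named for its expression in thymocytes, rose by 3.87 ± 0.26. RGS4, which shortens signalling by G proteins, read 5.88, 6.16 and 6.18, then 9.38, 9.40, 9.48 and 9.67. NRN1, a membrane-anchored neurite growth factor, read 5.74, 6.22 and 5.70, then 8.82, 8.97, 8.99 and 8.96, and ALDH1A1, a retinaldehyde dehydrogenase, read 3.90, 3.86 and 3.55, then 7.30, 7.05, 7.33 and 7.06. In these 3 genes both groups were tight, and their adjusted p-values were the smallest among rises (6.222e-06 for RGS4 and ALDH1A1, 1.345e-05 for NRN1).

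The rest of the 12 largest rises were TUBA4A, an alpha-tubulin (3.40 ± 0.28), ERMN, an oligodendrocyte cytoskeletal protein (3.32 ± 0.40), KCNH1, a voltage-gated potassium channel (3.23 ± 0.25), CRYAB, a small heat shock protein (3.19 ± 0.32), PYGM, a glycogen phosphorylase (3.18 ± 0.29), and CYP2J2, a cytochrome P450 of fatty acid metabolism (3.11 ± 0.21). In all 3 fetuses ETNPPL, MBP, PDYN, TESPA1, ERMN, PYGM and CYP2J2 lay under the 20th percentile of their array, where the size of a rise is poorly fixed. With every value raised to that percentile the difference was 2.72 for ETNPPL, 1.86 for PDYN and 2.25 for TESPA1, all still called, and 0.75 for ERMN, no longer called (adjusted p = 0.089). MBP kept 3.71 under the same floor.

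The largest falls included a protein of growing neurites, a polysialic acid enzyme, a peptide receptor, a matrix protein and a sodium channel. DPYSL5, a collapsin response mediator protein of growing neurites, read 8.19, 7.77 and 8.0 in the fetuses and 4.90, 4.16, 4.37 and 3.93 in the juveniles. The fetal values were close together, the youngest juvenile was nearest to them and the oldest farthest, and the difference was -3.65 ± 0.23 (adjusted p = 1.69e-05). ST8SIA2, which adds polysialic acid to the adhesion molecule NCAM, read 7.03, 7.19 and 6.80, then 4.50, 3.29, 3.75 and 2.42, again with the oldest juvenile the lowest (-3.52 ± 0.39). PTH2R, a receptor of the parathyroid hormone family, read 6.0, 5.95 and 5.44, then 2.55, 2.31, 2.02 and 1.95 (-3.59 ± 0.21, adjusted p = 1.345e-05). POSTN, a secreted matrix protein, read 4.67, 4.77 and 4.73, then 1.85, 1.62, 1.44 and 0.31, so that the oldest juvenile stood more than 1 log unit below the others. SCN9A, a voltage-gated sodium channel, read 5.54, 6.07 and 5.74, then 2.79, 2.06, 2.81 and 1.99 (-3.37 ± 0.25).

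RPRM, a mediator of cell cycle arrest, fell by 3.30 ± 0.28, NPR3, the clearance receptor for natriuretic peptides, by 3.27 ± 0.31, TRIM67, a ubiquitin ligase, by 3.24 ± 0.28 and SLCO5A1, an organic anion transporter family member, by 3.15 ± 0.18. KLHL1, an actin-binding neuronal protein, fell by 3.13 ± 0.34, the Src-like adaptor SLA by 3.04 ± 0.42 and LPL, lipoprotein lipase, by 3.03 ± 0.29. In all 4 juveniles POSTN, SCN9A, RPRM, NPR3, TRIM67, SLCO5A1 and PTH2R lay under their array's 20th percentile. Raised to that floor, POSTN fell by 1.73, RPRM by 1.95 and SLCO5A1 by 1.92, and each was still called; the other 4 fell by at least 2.48.

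**Figure D1:**
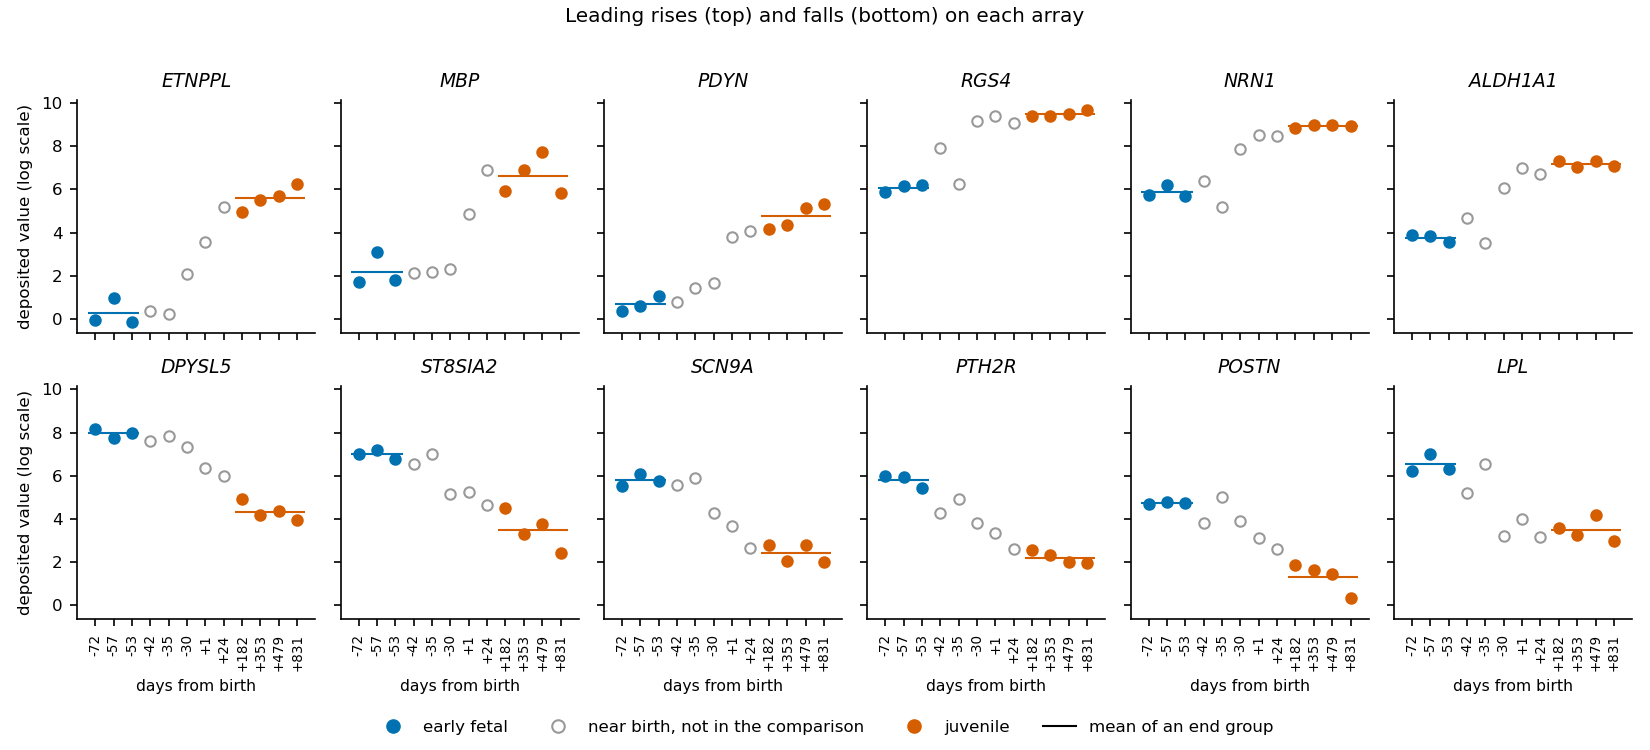
Deposited log values (vertical axis) of 6 leading rises and 6 leading falls on each of the 12 arrays, in order of age in days from birth (horizontal axis, not to scale). Filled points are the early fetal (blue) and juvenile (orange) arrays, open points the arrays near birth that the comparison left out, and lines the end group means. In every panel the 4 juveniles lie on 1 side of the 3 fetuses.

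The genes were described further in 53 lists by cell type, structure and pathway, with 1198 of 2002 listed genes measured. No list was tested as a set. Counts stand against the 14.7% of rows called higher and 10.8% called lower over the table, and list medians against the median of 0.04. Medians of the cadherin, Ig-family, cortical layer, sodium channel, Wnt and chromatin lists changed sign in 1 or more alternatives and have no settled direction.

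**Figure D2:**
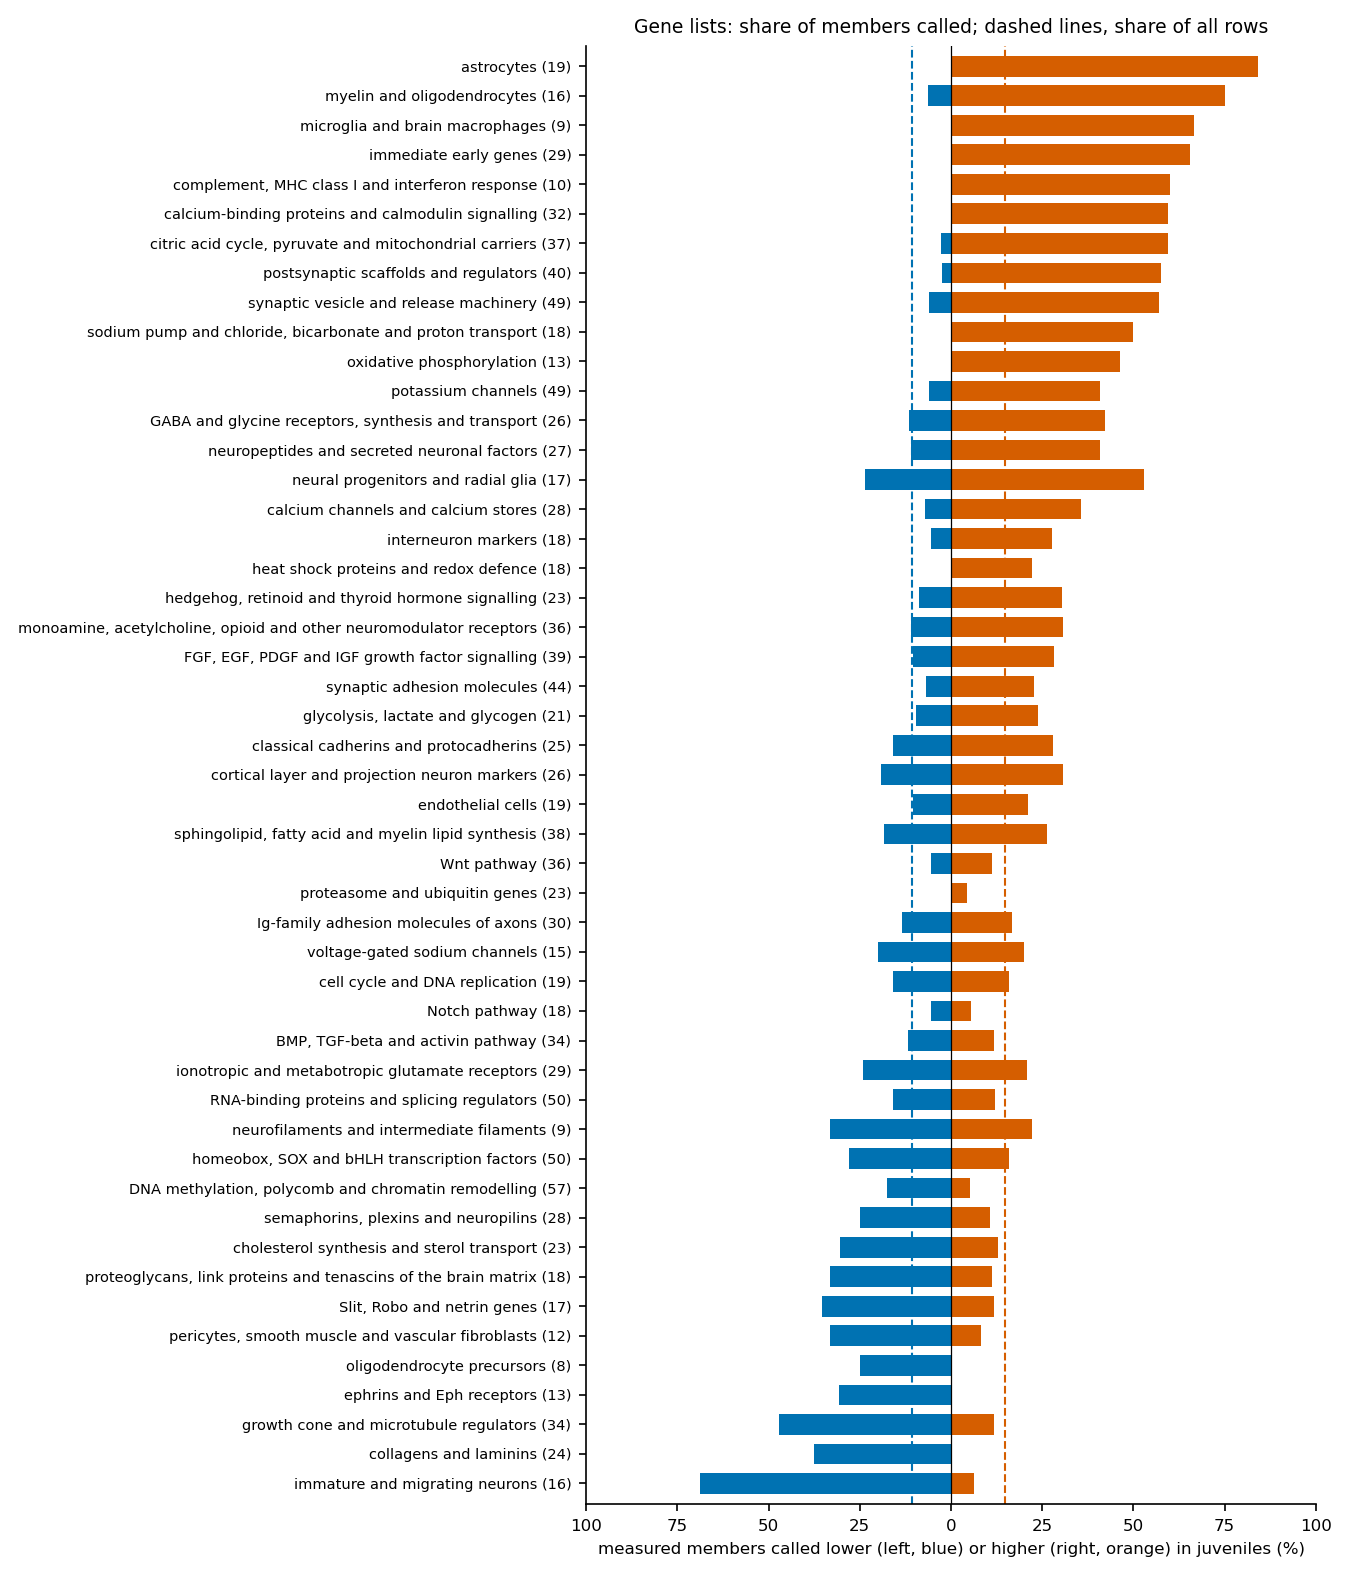
Share of measured members of each gene list called higher (orange, to the right) or lower (blue, to the left) in juveniles, in percent, for lists with at least 8 measured members; numbers in brackets are measured members. Dashed lines mark 14.7% and 10.8%, the shares over all rows; astrocyte, myelin and immediate early genes extend far to the right, and genes of immature neurons, growth cones and collagens to the left.

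Genes of immature and migrating neurons fell together. Of 16 measured, 11 fell and 1 rose, with a list median of -1.31, and the 11 falls held with any 1 array left out. DCX, a microtubule protein of migrating neurons, read 7.85, 7.64 and 7.65, then 5.13, 4.94, 5.09 and 4.31. Both groups were tight apart from the oldest juvenile, which was the lowest, and the difference was -2.84 ± 0.22 (adjusted p = 3.723e-05). DPYSL3 fell by 2.91 ± 0.26, NREP by 2.19 ± 0.24, the second polysialyltransferase ST8SIA4 by 1.51 ± 0.20, the tubulin-binding STMN2 by 1.41 ± 0.18 and STMN1 by 1.28 ± 0.18. The transcription factors SOX11 (-1.32 ± 0.26) and NEUROD6 (-1.26 ± 0.19) fell as well. TBR1, a factor of deep-layer neurons, differed by -0.29 ± 0.23 and the RNA-binding ELAVL4 by -0.06 ± 0.16, and neither was called. The single rise was TAGLN3, a neuronal actin-binding protein (1.03 ± 0.21), which was no longer called with the 53-day fetus and the 182-day juvenile both left out (adjusted p = 0.063).

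Growth cone and microtubule regulators overlapped this list in part. There 16 of 34 measured genes fell and 4 rose, with a median of -0.52, and 13 to 16 fell with 1 array left out. The kinesin KIF21B fell by 1.57 ± 0.22, the tubulin TUBB2B by 1.48 ± 0.17 and GAP43, a membrane protein of growth cones, by 0.96 ± 0.17. TUBB2B read 6.29, 6.20 and 6.02 in the fetuses and 4.67, 4.63, 4.50 and 4.98 in the juveniles, without overlap. In the other direction TUBA4A rose from 3.53, 3.68 and 3.10 to 6.94, 6.98, 6.10 and 7.31. MAP1A, a microtubule-associated protein of mature dendrites, read 6.02, 6.04 and 6.04, then 7.10, 7.05, 7.26 and 7.46 (1.19 ± 0.16). Among filament proteins, the alpha-internexin gene INA fell by 1.08 ± 0.20, while the heavy neurofilament gene NEFH rose by 1.89 ± 0.30.

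Axon guidance genes fell more often than they rose. Semaphorins, plexins and neuropilins counted 7 falls and 3 rises among 28 genes (median -0.27), ephrins and Eph receptors 4 falls and no rise among 13 (median -0.27), and Slit, Robo and netrin genes 6 falls and 2 rises among 17 (median -0.30). No gene of this last list rose without the 53-day fetus, and 1 rose without the 72-day fetus or the 479-day or 182-day juvenile. SRGAP1, a GTPase regulator downstream of Robo receptors, read 5.46, 5.28 and 5.38 in the fetuses and 2.35, 2.62, 2.84 and 2.83 in the juveniles. Here the youngest juvenile was the lowest, and the difference was -2.71 ± 0.18 (adjusted p = 1.69e-05). The receptor ROBO1 fell by 1.72 ± 0.18, ROBO2 by 0.94 ± 0.16 and the netrin receptor NEO1 by 1.60 ± 0.18. SEMA4G fell by 1.92 ± 0.19, PLXNA3 by 1.46 ± 0.19, PLXNA1 by 0.95 ± 0.21, EPHB1 by 1.19 ± 0.21 and EFNB2 by 0.89 ± 0.17. SEMA4D was a rise (1.01 ± 0.19), and 1 semaphorin-family gene rose without the 53-day fetus. The netrin receptor DCC (-0.42 ± 0.18) and NRP1 (-0.29 ± 0.20) were not called.

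Matrix genes fell in number too. Of 24 collagen and laminin genes 9 fell and none rose (median -0.30), but only 3 fell without the 53-day fetus and 5 without the 72-day fetus, and 1 rose without the 831-day juvenile. FN1, fibronectin, fell by 1.34 ± 0.24 and COL12A1 by 0.98 ± 0.17. Among 18 proteoglycans, link proteins and tenascins 6 fell and 2 rose (median -0.42); 3 fell with the highest-median array of each group left out, and 1 rose without the 182-day juvenile. HAS2, a hyaluronan synthase, read 4.59, 5.08 and 5.34, then 2.42, 2.32, 2.54 and 1.94. All fetuses were more than 2 log units above all juveniles, and the fall was 2.70 ± 0.22. TNC, a tenascin of developing tissue, fell by 1.73 ± 0.26, and the proteoglycan VCAN read 5.64, 5.84 and 6.02, then 3.44, 4.31, 4.21 and 4.30, with the youngest juvenile the lowest.

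Adhesion genes were mixed. Axonal Ig-family molecules counted 5 rises and 4 falls among 30 (median -0.08, mean 0.05), and cadherins 7 rises and 4 falls among 25. In the Ig family, CHL1 fell by 1.08 ± 0.16, while NRCAM of the node of Ranvier rose by 1.24 ± 0.15 and CNTNAP1, which anchors myelin loops to the axon beside the node, by 2.24 ± 0.21. CNTNAP1 read 3.02, 2.95 and 2.52, then 5.14, 4.68, 5.35 and 5.13, with no overlap. CDH18 rose by 2.41 ± 0.23 and PCDH18 fell by 1.36 ± 0.17. Without the 72-day fetus the Ig family counted 3 rises and 2 falls and the cadherins 4 rises; without the 53-day fetus the Ig family again counted 3 and 2 and the cadherins 2 falls. Without the 479-day juvenile 3 Ig-family genes rose.

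Myelin and oligodendrocyte genes rose. Of 16 measured, 12 rose and 1 fell (median 1.71), and 11 to 13 rose with 1 array left out. MAG, a myelin protein facing the axon, read 0.94, 2.38 and 1.55 in the fetuses and 3.77, 3.84, 4.86 and 3.23 in the juveniles. The 57-day fetus and the 479-day juvenile, the arrays of highest median, were the highest of their groups, and the oldest juvenile was the lowest of its own. MAG rose by 2.30 ± 0.40, the galactolipid enzyme UGT8 by 1.75 ± 0.35, CLDN11, a tight junction protein of myelin, by 1.71 ± 0.26, BCAS1 by 1.71 ± 0.21, ENPP2 by 1.87 ± 0.30 and SEPTIN4 by 1.80 ± 0.32. OPALIN, a paranodal loop protein, rose by 2.92 ± 0.58, with 2.88 in the oldest juvenile against 5.31 at 479 days; under the 20th percentile floor its difference was 1.10 and not called (adjusted p = 0.079). MAG kept 1.04 and BCAS1 0.95 under that floor. CNP, an early myelin enzyme, was called at 1.09 ± 0.26, but not without the 72-day or the 53-day fetus (adjusted p up to 0.057), nor with the 53-day fetus and the 182-day juvenile both left out (0.069). The fall was TSPAN2, a tetraspanin (-1.31 ± 0.27), and 2 genes fell without the 57-day fetus. ENPP6 of newly forming oligodendrocytes differed by 0.27 ± 0.36 and GALC, which degrades galactolipids, by -0.75 ± 0.29; neither was called. With every value raised to the floor the list median was 1.09. Oligodendrocyte precursor genes had 2 falls among 8 (median -0.32), and 1 with any single array but the 831-day juvenile left out; PDGFRA differed by -0.31 ± 0.27.

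Astrocyte genes had the largest share of rises among lists with 8 or more measured members. Of 19 measured, 16 rose and none fell (median 1.31), and 15 to 17 rose with 1 array left out. GFAP, the astrocyte intermediate filament, read 5.53, 5.35 and 5.61, then 7.58, 8.12, 8.01 and 8.19. The youngest juvenile was the lowest of its group and still about 2 log units above every fetus, and the rise was 2.47 ± 0.19 (adjusted p = 3.723e-05). SLC1A2, the main glutamate transporter, rose by 2.11 ± 0.22, S100B by 2.29 ± 0.25, ALDOC, an aldolase, by 2.02 ± 0.21 and ATP1B2, a sodium pump subunit, by 1.58 ± 0.20. CLU, a secreted chaperone, rose by 1.74 ± 0.24. AQP4, the water channel of astrocyte endfeet, differed by 0.40 ± 0.24 and EDNRB by 0.00 ± 0.21, and neither was called.

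Microglial genes rose in 6 of 9 measured (median 0.83) and in 3 of 9 without the 53-day fetus. CSF1R, the receptor that keeps microglia alive, read 3.02, 2.63 and 2.84, then 3.97, 3.80, 4.28 and 4.29 (1.25 ± 0.19), while CTSS (0.10 ± 0.22) and TYROBP (0.52 ± 0.25) were not called. P2RY12, a purine receptor of resting microglia, was called at 0.84 ± 0.24, but not without the 57-day or the 53-day fetus or the 479-day juvenile (adjusted p up to 0.12 over all alternatives). The largest rise of the list, GPR34 (1.41 ± 0.25), lay under the 20th percentile in every fetus and juvenile. Raised to that floor, it differed by 0.10 and was not called (adjusted p = 0.73). That 0.10 is the difference between the floors of the 2 groups of arrays. F13A1 (0.99 ± 0.21) also lost its call under that floor (0.50, adjusted p = 0.087). CD163 and CX3CR1 lost theirs in 5 and 4 of the fits with a single array left out. CSF1R was called in every alternative. Complement, MHC class I and interferon genes rose in 6 of 10 measured, with none falling (median 1.58, and 0.63 to 1.68 over the alternatives). Of the 10, 2 lay under the 20th percentile in every fetus and juvenile. B2M, the light chain of MHC class I, read 4.80, 5.11 and 5.09, then 7.24, 7.11, 7.20 and 7.58 (2.28 ± 0.18). C3, the central complement component, rose by 1.62 ± 0.21 and C1R by 1.67 ± 0.31 (0.79 under the 20th percentile floor). IFIT1, an interferon-induced gene, read 1.59, 3.07 and 1.57, then 3.63, 4.86, 4.84 and 4.76, so the youngest juvenile and the 57-day fetus were separated by little. Only 10 of 50 listed genes of this kind were in the table.

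Progenitor genes did not move as a block. Of 17 measured, 9 rose and 4 fell (median 0.54), and 5 rose without the 72-day fetus. PROM1, a surface marker of neural stem cells, read 6.15, 6.0 and 5.80, then 4.26, 3.71, 4.17 and 3.68 (-2.03 ± 0.20), and FABP7, the fatty acid binding protein of radial glia, fell by 1.94 ± 0.23. The largest rise was CRYAB (3.19), a gene that is also on the heat shock list. PAX6, a transcription factor of radial glia, rose as well (0.98 ± 0.22). SOX2 (0.12 ± 0.17) and HES1 (0.01 ± 0.17) were not called.  Cell cycle genes gave 3 rises and 3 falls among 19 (median -0.39): the cyclin CCND2 rose by 1.54 ± 0.19 and the kinase CDK6 by 1.43 ± 0.30 (0.75 under the 20th percentile floor), and MKI67, a marker of dividing cells, differed by -0.63 ± 0.32, not called. Genes called lower were TOP2A, the cyclin CCNA2 and MCM6 (adjusted p = 0.022, 0.025 and 0.016). Under the 20th percentile floor TOP2A and CCNA2 were no longer called, while MCM6 still fell (-0.62). No member fell without the 53-day fetus and 1 fell without the 57-day fetus. The median of this list turned to 0.06 with every value raised to the 20th percentile floor.

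Vascular and blood cell genes were checked as markers of other cells in the tissue. Among 19 endothelial genes 4 rose and 2 fell (median 0.34), with 8 rises without the 57-day fetus; SLC2A1, the glucose transporter of the blood-brain barrier, rose by 1.25 ± 0.20, and KDR, the receptor of vascular growth, fell by 1.17 ± 0.23. PECAM1 (0.10 ± 0.24) and VWF (0.54 ± 0.22), which define endothelium, were not called. Of 12 pericyte, smooth muscle and fibroblast genes 4 fell and 1 rose (median -0.34), and 1 fell without the 72-day or without the 53-day fetus; RGS5, a pericyte gene, rose by 1.44 ± 0.17. The choroid plexus gene TTR differed by -0.08 ± 0.28, the red cell enzyme ALAS2 by -0.32 ± 0.30 and the T cell gene CD2 by 0.10 ± 0.23, and none was called, nor was any of 3 measured ependymal and choroid plexus genes. CA2, a carbonic anhydrase of red cells and also of oligodendrocytes, was called at 1.34 ± 0.35 with overlapping groups. It was not called without the 72-day or the 53-day fetus, nor under the 20th percentile floor, where the difference was 0.54 (adjusted p = 0.15). Few blood cell genes were measured (2 of 20 for red cells and 2 of 14 for lymphocytes), and their part in other results was not tested.

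Genes of the synapse rose on both sides of the cleft. Of 49 genes of vesicles and release, 28 rose and 3 fell (median 0.84), with 22 to 31 rises when 1 array was left out. SNAP25, part of the fusion machinery, read 6.39, 6.37 and 6.11, then 7.84, 8.02, 8.33 and 8.45 (1.87 ± 0.19). The juveniles lay in the order of their age and every one was more than 1 log unit above the fetuses. RPH3A, a Rab3 effector, rose by 1.91 ± 0.20, DOC2A, a calcium sensor of release, by 2.13 ± 0.24, the vesicle protein SYN2 by 1.79 ± 0.17, NSF, which takes fusion complexes apart, by 1.77 ± 0.19 and DNM1, the dynamin of vesicle recovery, by 1.47 ± 0.15. SYN1 rose by 1.22 ± 0.17, RAB3A by 1.23 ± 0.19 and SYP by 1.10 ± 0.16. DOC2A lay under the 20th percentile in the fetuses, and its difference was 0.60 with values raised to that floor (adjusted p = 0.040). SV2A (0.36 ± 0.17) and the active zone protein PCLO (0.37 ± 0.17) were not called.

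Of 40 postsynaptic genes 23 rose and 1 fell (median 0.66), with 16 to 24 rises when 1 array was left out. CAMK2A, the alpha subunit of the kinase of synaptic plasticity, read 5.04, 5.01 and 5.10, then 7.76, 7.56, 7.86 and 7.56. Both groups were tight, and the rise was 2.63 ± 0.16 (adjusted p = 1.376e-05). IQSEC1, an exchange factor for Arf GTPases, rose by 1.77 ± 0.21, and the scaffold HOMER1 by 1.35 ± 0.20. DLG2, a scaffold of the postsynaptic density, differed by -0.21 ± 0.17 and was not called, and PSD, another Arf exchange factor, was the fall (-0.95 ± 0.17). Synaptic adhesion genes stood closer to the table as a whole, with 10 rises and 3 falls among 44 (median 0.03, which turned sign with array median centring). The pentraxin receptor NPTXR rose by 1.45 ± 0.18, NPTX1, which gathers AMPA receptors, by 1.68 ± 0.27 and CLSTN2 by 1.69 ± 0.20, while NLGN1 (-0.34 ± 0.17) and LRRTM2 (-0.14 ± 0.19) were not called. No adhesion gene fell without the 53-day fetus and 1 fell without the 72-day fetus.

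Glutamate receptor genes were split. Of 29 measured, 6 rose and 7 fell, and the median of 0.06 turned sign under array median centring. The NMDA receptor subunit GRIN2A, typical of mature synapses, read 5.31, 5.02 and 5.30, then 6.90, 6.16, 6.65 and 6.42 (1.33 ± 0.20, adjusted p = 0.001193). All juveniles lay above all fetuses, the 353-day juvenile being the nearest to them. GRIN1, the obligatory subunit, rose by 1.03 ± 0.17, and CACNG3, an auxiliary subunit of AMPA receptors, by 1.46 ± 0.20. Its relative CACNG4 read 5.98, 4.6 and 6.01, then 4.09, 3.77, 3.70 and 4.39, so the 57-day fetus lay close to the oldest juvenile (-1.54 ± 0.33; adjusted p = 0.066 with the 53-day fetus and 182-day juvenile left out). The metabotropic receptor GRM7 fell by 1.03 ± 0.19. The AMPA receptor subunit GRIA1 fell by 0.69 ± 0.16, with adjusted p up to 0.092 over the alternatives and the call lost without the 72-day fetus, and GRIA2 differed by -0.04 ± 0.15. GRIN2B, the fetal partner of GRIN2A, was called at -0.65 ± 0.22 (adjusted p = 0.04944), but its groups overlapped and 5 of 7 single arrays ended the call, all but the 57-day fetus and the 182-day juvenile. Without the 72-day fetus 2 of the 7 falls in the list were called, and 4 without the 53-day fetus or the 353-day juvenile.

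Genes of inhibition rose more than they fell, 11 against 3 among 26 (median 0.53), though only 6 rose without the 53-day fetus or the 353-day juvenile and 7 without the 72-day fetus or the 182-day juvenile. SLC12A5, the transporter that lowers neuronal chloride and makes GABA inhibitory, read 4.07, 3.77 and 3.71, then 5.91, 5.47, 5.85 and 5.28. The groups were well apart, and the rise was 1.78 ± 0.20 (adjusted p = 0.0002504). GABRD, the delta subunit of receptors outside the synapse, rose by 1.87 ± 0.25, with 0.90 under the 20th percentile floor, and the glycine receptor subunit GLRA3 by 1.48 ± 0.22. Of the enzymes that make GABA, GAD2 rose by 1.29 ± 0.20 and GAD1 differed by 0.20 ± 0.21, not called. GLRA2, the fetal glycine receptor subunit, read 6.27, 6.25 and 6.01, then 4.70, 4.72, 4.56 and 4.12 (-1.65 ± 0.19), and the GABA transporter SLC6A11 fell by 1.17 ± 0.18. The subunits GABRA2 (-0.10 ± 0.17), GABRB1 (-0.24 ± 0.19), GABRG3 (0.13 ± 0.16) and GABRA5 (0.36 ± 0.19) were not called.

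In 18 measured pairs of related genes, 1 partner was listed as the earlier and 1 as the later. These labels were set when the pairs were listed, with earlier results of these data known. The later partner gained on the earlier without overlap between the groups in 15 pairs. Over single rows the groups lay apart in 18.6% upward and 16.6% downward, and no share was taken for other gene pairs. Sodium channels gave the widest shift, with SCN9A at -3.37 and SCN8A at 0.98 ± 0.16. SCN3A, a channel of the fetal brain, fell by 1.52 ± 0.25, while its partner SCN1A differed by 0.29 ± 0.19 and was not called. Among vesicular glutamate transporters SLC17A6 read 5.64, 5.09 and 5.51, then 3.90, 3.15, 3.47 and 4.76, and SLC17A7 read 5.52, 5.40 and 5.35, then 7.33, 7.10, 7.34 and 7.07. The fall in SLC17A6 was 1.60 ± 0.34, with the oldest juvenile nearest to the fetuses, and it was not called with the 53-day fetus and the 182-day juvenile left out (adjusted p = 0.054), whereas SLC17A7 rose by 1.79 ± 0.16 with both groups tight. The synaptotagmin SYT4 fell by 1.17 ± 0.16, and its partner SYT1 was called at 0.75 ± 0.20 but not without the 72-day or the 53-day fetus (adjusted p up to 0.079).

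In other pairs 1 partner moved and the other did not pass the test. CAMK2A rose while CAMK2D differed by 0.18 ± 0.22, and SLC12A5 rose while SLC12A2, which raises chloride, differed by 0.28 ± 0.21. ST8SIA2 fell while ST8SIA3 differed by 0.26 ± 0.16, TNC fell while TNR differed by 0.47 ± 0.23, and VCAN fell while BCAN differed by 0.10 ± 0.16. EZH2, the polycomb methyltransferase of dividing cells, fell by 1.04 ± 0.18, a call lost under the 20th percentile floor (adjusted p = 0.12), and EZH1 was called at 0.62 ± 0.20 but in only 2 of 7 fits with 1 array left out, those without the 57-day fetus or the 831-day juvenile. In the collapsin response family both partners fell, DPYSL3 by 2.91 and DPYSL2 by 0.59 ± 0.18, the latter a call lost without the 72-day or 53-day fetus or the 182-day or 353-day juvenile. The 3 exceptions were CNTN2 and CNTN1 (0.96 and -0.20) and the BAF complex subunits ACTL6A and ACTL6B (0.05 and -0.49), which went the other way, and PTBP1 and PTBP2 (-0.31 and -0.76), which overlapped. PTBP2 was called, though not with the 53-day fetus and the 182-day juvenile left out (adjusted p = 0.066). The call of CNTN2 was lost without the 72-day or 53-day fetus or the 353-day or 479-day juvenile.

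**Figure D3:**
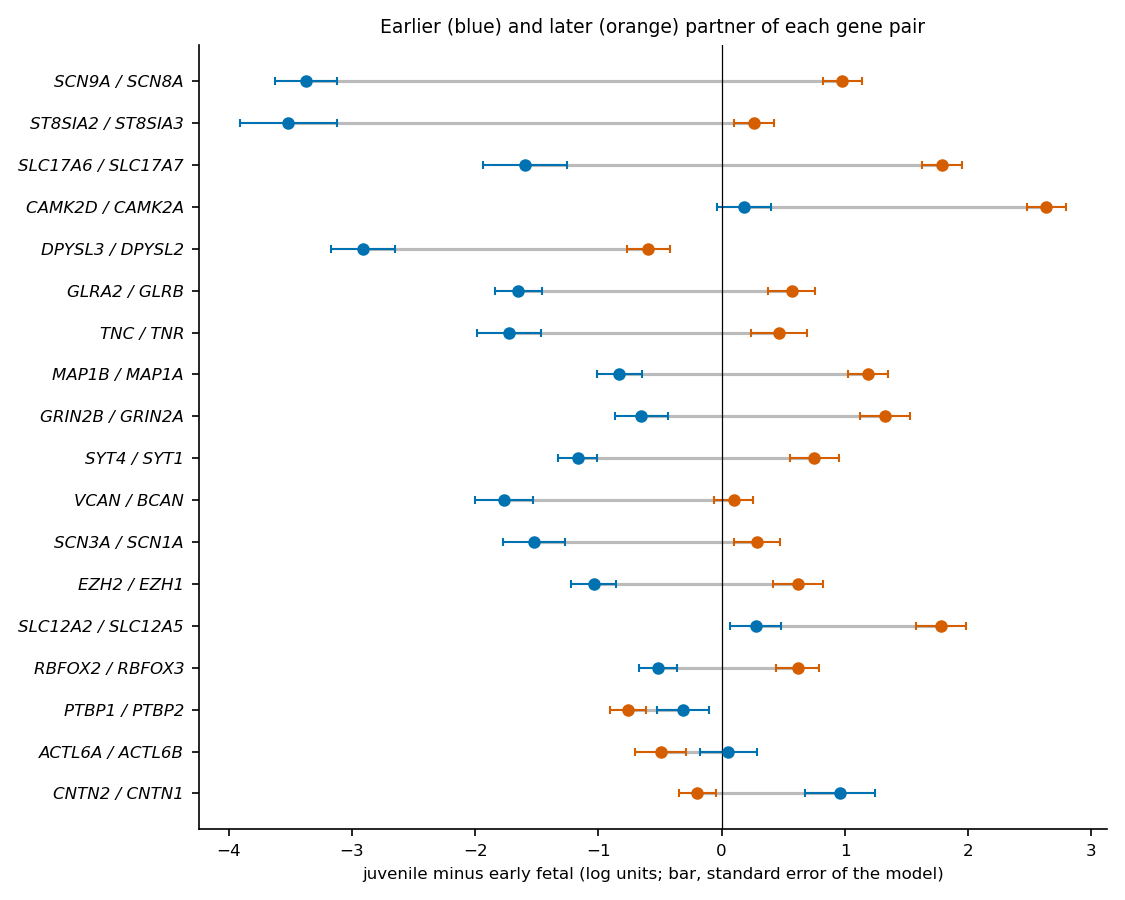
Juvenile minus early fetal difference in log units (horizontal axis) for the earlier (blue) and later (orange) partner of 18 gene pairs, with bars for the standard error of the model. The later partner lies to the right of the earlier in all pairs but PTBP1 and PTBP2, ACTL6A and ACTL6B, and CNTN2 and CNTN1.

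Potassium channel genes rose in 20 and fell in 3 of 49 (median 0.37). KCNH1 read 3.27, 4.01 and 4.21, then 7.19, 7.03, 7.35 and 6.64. Every juvenile was more than 2 log units above every fetus. KCNK1, a leak channel, rose by 2.46 ± 0.24, the auxiliary subunit KCNAB2 by 2.16 ± 0.17 and KCNA1, a channel of axons, by 2.04 ± 0.23, while KCNK10 fell by 1.67 ± 0.25. Among 15 sodium channel genes 3 rose and 3 fell, and the auxiliary subunit SCN2B rose by 2.12 ± 0.26. Calcium channels and stores gave 10 rises and 2 falls among 28 (median 0.40); none fell without the 53-day fetus, and 1 fell without the 72-day fetus or any juvenile but the 182-day one. The sodium, calcium and potassium exchanger SLC24A2 rose by 2.58 ± 0.20, and the store receptors ITPR1 by 1.41 ± 0.23 and ITPR2 by 1.37 ± 0.15.

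Calcium-binding proteins and calmodulin signalling rose in 19 of 32 genes with no fall (median 0.72), and 14 to 19 rose with 1 array left out. The diacylglycerol kinase DGKB read 5.09, 4.96 and 4.82, then 7.29, 7.52, 7.71 and 7.08 (2.44 ± 0.19). Its groups were separated by about 2 log units. VSNL1, a neuronal calcium sensor, rose by 1.70 ± 0.16 and CALB1, calbindin, by 2.17 ± 0.31. PVALB, parvalbumin of fast-spiking interneurons, read 1.04, 1.85 and 1.41, then 3.93, 2.94, 3.49 and 3.81 (2.11 ± 0.27). The fetal values lay under the 20th percentile, and its difference under that floor was 0.66 (adjusted p = 0.042). Interneuron markers as a list gave 5 rises and 1 fall among 18 (median 0.07, which turned sign with array median centring; no fall without the 57-day or 72-day fetus or the 353-day or 182-day juvenile), with somatostatin, SST, at 0.12 ± 0.17, not called. Pump and chloride or proton transport genes rose in 9 of 18 (median 0.57), and in 5 without the 53-day fetus; CA11, a carbonic anhydrase-related protein, rose by 2.24 ± 0.20.

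Neuropeptides and secreted neuronal factors rose in 11 and fell in 3 of 27 (median 0.51). BDNF, the activity-regulated neurotrophin, read 1.40, 2.31 and 1.43, then 4.26, 4.39, 4.70 and 3.97. Its groups stood more than 1.5 log units apart, and it rose by 2.62 ± 0.26, or by 1.44 under the 20th percentile floor. ADCYAP1, the precursor of the peptide PACAP, rose by 2.96 ± 0.28, with 1.17 under that floor, and CRHBP, which binds corticotropin-releasing hormone, by 1.42 ± 0.21 (0.81 under that floor). IGF1, an insulin-like growth factor, fell by 1.11 ± 0.22. GRP, gastrin-releasing peptide, read 5.84, 6.94 and 6.31, then 5.15, 4.76, 4.13 and 1.80, so the oldest juvenile alone was far below the rest (-2.41 ± 0.66, a call lost without the 57-day or the 53-day fetus, when 1 gene of the list fell). Neuromodulator receptors rose in 11 and fell in 4 of 36 (median 0.35, and -0.07 with the dimmest 25% of rows left out). The serotonin receptor HTR2A rose by 1.60 ± 0.32, while the neuropeptide Y receptors NPY1R and NPY5R fell by 2.42 ± 0.21 and 1.54 ± 0.24. NPY1R read 5.11, 5.37 and 5.50, then 3.19, 2.96, 3.02 and 2.44. The peptide NPY itself differed by 0.87 ± 0.39, not called. With the 72-day or the 53-day fetus left out, 6 receptors rose and 2 fell, and without the 479-day juvenile 7 rose and 2 fell.

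Immediate early genes, which neurons switch on within minutes of strong activity, rose in 19 of 29 with no fall (median 1.28), and 16 to 23 rose with 1 array left out. EGR1 read 2.71, 3.12 and 2.04 in the fetuses and 5.16, 4.47, 4.80 and 4.90 in the juveniles. The groups were separated by more than 1 log unit, and the rise was 2.21 ± 0.26 (adjusted p = 0.000301). FOSL2 rose by 1.88 ± 0.25, JUNB by 1.46 ± 0.19, the orphan nuclear receptors NR4A1 by 1.69 ± 0.26 (0.95 under the 20th percentile floor) and NR4A2 by 1.74 ± 0.27, RGS2 by 1.65 ± 0.19, the phosphatase DUSP6 by 1.26 ± 0.20 and PTGS2, cyclooxygenase 2, by 1.47 ± 0.27. FOS read 1.94, 1.19 and 1.68, then 3.52, 2.96, 3.03 and 3.11 (1.55 ± 0.22), under the 20th percentile in every fetus and 1 juvenile; its difference under that floor was 0.32, not called (adjusted p = 0.26). NPAS4 and ARC, both neuron-specific, lost their calls under the floor as well (1.40 and 0.98 before, 0.52 and 0.49 after). PER1 (0.71 ± 0.24), FOSB (0.79 ± 0.38), DUSP1 (0.41 ± 0.20), IER2 (0.26 ± 0.32), INHBA (-0.17 ± 0.28) and PLK2 (-0.26 ± 0.17) were not called. The list median under the floor was 0.66.

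Energy metabolism genes rose. Of 37 genes of the citric acid cycle, pyruvate and mitochondrial carriers 22 rose and 1 fell (median 0.68), with 14 rises without the 72-day or without the 53-day fetus, and no fall without the 72-day fetus. PDK3, a kinase that restrains pyruvate dehydrogenase, read 1.81, 2.41 and 2.02, then 4.87, 4.51, 4.81 and 4.69. Both groups were narrow and far apart, and the rise was 2.64 ± 0.19. The related kinase PDK4 rose by 1.90 ± 0.24 (1.07 under the 20th percentile floor), the mitochondrial glutamate carrier SLC25A18 by 2.06 ± 0.21, the aspartate aminotransferase GOT1 by 1.80 ± 0.16, creatine kinase CKB by 1.68 ± 0.21 and OGDH by 1.10 ± 0.19. Oxidative phosphorylation was thinly covered, with 13 of 77 listed genes measured; 6 rose (median 0.59), but 2 without the 72-day or the 53-day fetus. NDUFS1 of complex I rose by 1.01 ± 0.18. In glycolysis and glycogen use 5 of 21 rose and 2 fell (median 0.19), with PYGM and ALDOC the highest and PGD, of the pentose phosphate pathway, falling by 1.36 ± 0.21.

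Enzymes of cholesterol synthesis were among the genes that fell. Of 23 genes of sterol synthesis and transport 7 fell and 3 rose; the median was 0.08, the mean -0.12, and the median turned sign in some settings. HMGCS1, an early enzyme of the pathway, read 8.84, 8.61 and 8.87, then 7.62, 7.18, 7.07 and 7.0. The youngest juvenile was the nearest to the fetuses, and the fall was 1.55 ± 0.19 (adjusted p = 0.0003739). DHCR7, of the last step, fell by 1.36 ± 0.29, SQLE by 1.12 ± 0.22 and MSMO1 by 0.97 ± 0.22. CYP46A1, which turns brain cholesterol over in neurons, rose by 1.37 ± 0.19. Without the 57-day fetus, the 53-day fetus or the 831-day juvenile 4 members fell. Sphingolipid and fatty acid genes gave 10 rises and 7 falls among 38 (median -0.03, mean 0.12, the median turning sign in some settings), with SGPP2 up by 2.01 ± 0.20; 6 rose without the 53-day fetus.

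Signalling pathways were mixed. Growth factor genes of the FGF, EGF, PDGF and IGF families rose in 11 and fell in 4 of 39, with a median of 0.05 that turned sign under quantile normalization and under median centring. FGF1 read 2.65, 3.62 and 3.09, then 4.97, 5.33, 5.28 and 4.96, and rose by 2.01 ± 0.23. FGF2 rose by 1.55 ± 0.25 and the receptor FGFR1 by 1.22 ± 0.20, while the receptor tyrosine kinase KIT fell by 1.27 ± 0.16 and IGFBP5 by 1.13 ± 0.20. Rises in this list numbered 6 without the 72-day fetus, 4 without the 53-day fetus and 7 without the 182-day or 479-day juvenile.

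The hedgehog, retinoid and thyroid hormone list rose in 7 and fell in 2 of 23 (median 0.18), with ALDH1A1 the highest; 3 rose without the 72-day fetus, 4 without the 53-day fetus or the 479-day juvenile, and 3 without the highest-median array of each group, while 1 fell with any fetus left out. The remaining developmental pathways stood near the table as a whole or below it. Wnt genes counted 4 rises and 2 falls among 36 (7 rises without the 57-day fetus, and 1 fall without the 72-day or 53-day fetus or the 479-day or 353-day juvenile), Notch genes 1 and 1 among 18 (no rise without the 53-day fetus), and BMP, TGF-beta and activin genes 4 and 4 among 34 (median -0.17, mean 0.02). Within them, the Wnt inhibitor WIF1 rose by 2.32 ± 0.29, the polarity gene VANGL2 fell by 1.43 ± 0.21, and the Notch ligand DNER fell by 1.27 ± 0.20. SMAD3, a mediator of TGF-beta signals, read 2.78, 3.32 and 3.20, then 5.46, 5.37, 5.60 and 5.0 (2.25 ± 0.20). SMAD1, a mediator of BMP signals, fell by 1.18 ± 0.21. Without the 72-day fetus 2 BMP and TGF-beta genes rose.

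Transcription factors of the homeobox, SOX and bHLH families fell in 14 and rose in 8 of 50 (median -0.20); 5 rose without the 72-day or the 53-day fetus or the 353-day or 479-day juvenile. POU3F2, a factor of upper-layer neurons, fell by 1.25 ± 0.24, and BHLHE41, a clock-related repressor, rose by 1.92 ± 0.30. Markers of cortical layers went both ways, with 8 rises and 5 falls among 26 (median -0.03, mean 0.15). Their counts shrank to 4 and 2 without the 53-day fetus, the rises to 5 without the 72-day fetus, and the falls to 3 without the 57-day fetus, the 353-day or the 831-day juvenile. TSHZ2 read 2.15, 2.47 and 2.35, then 3.74, 3.95, 3.82 and 3.81, a rise of 1.5 ± 0.16 (0.94 under the 20th percentile floor).

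Chromatin genes fell in 10 and rose in 3 of 57 (median -0.08), but 3 fell without the 53-day fetus, 4 without the 72-day and 6 without the 57-day fetus, and 5 rose without the 57-day fetus or the 831-day juvenile. The histone deacetylase HDAC2 read 6.13, 6.10 and 6.13, then 5.20, 5.19, 5.03 and 4.64 (-1.11 ± 0.18), and CBX6, a polycomb subunit, rose by 1.80 ± 0.19. RNA-binding and splicing genes gave 6 rises and 8 falls among 50 (median -0.16), with 5 falls without the 72-day or the 53-day fetus. CPEB1, a regulator of local translation, rose by 2.08 ± 0.24, the splicing factor MBNL2 by 1.58 ± 0.17 and MSI2 by 1.14 ± 0.16, while the splicing and stress granule protein TIA1 fell by 1.10 ± 0.16 and HNRNPA1 by 0.94 ± 0.20. Heat shock and redox genes rose in 4 of 18 with no fall. Proteasome and ubiquitin genes counted 1 rise among 23, below the 14.7% of the table (2 without the 57-day fetus, and none with any other single array but the 831-day juvenile left out), and neither of 2 measured ribosomal protein genes was called.

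On the first component of the 7 end arrays, with 59.2% of the variance, the fetuses lay between -40.4 and -32.1 and the juveniles between 23.5 and 32.5. The second, with 21.3%, followed the array median inversely: the 57-day fetus (-28.3) and the 479-day juvenile (-22.4), which have the highest medians, lay at 1 end, and the 831-day juvenile (30.7) and the 72-day fetus (17.4), with the lowest, at the other. The cause of this second axis was not tested. The 5 arrays near birth, which shaped neither component, projected onto the first at -32.9 (35 days before birth), -24.6 (42 days before), -12.3 (30 days before), 2.82 (1 day of age) and 18.0 (24 days of age). All 5 fell between the extremes of the end groups, and the 35-day fetus lay among the earlier fetuses, ahead of the 42-day fetus in age and behind it on the axis.

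**Figure D4:**
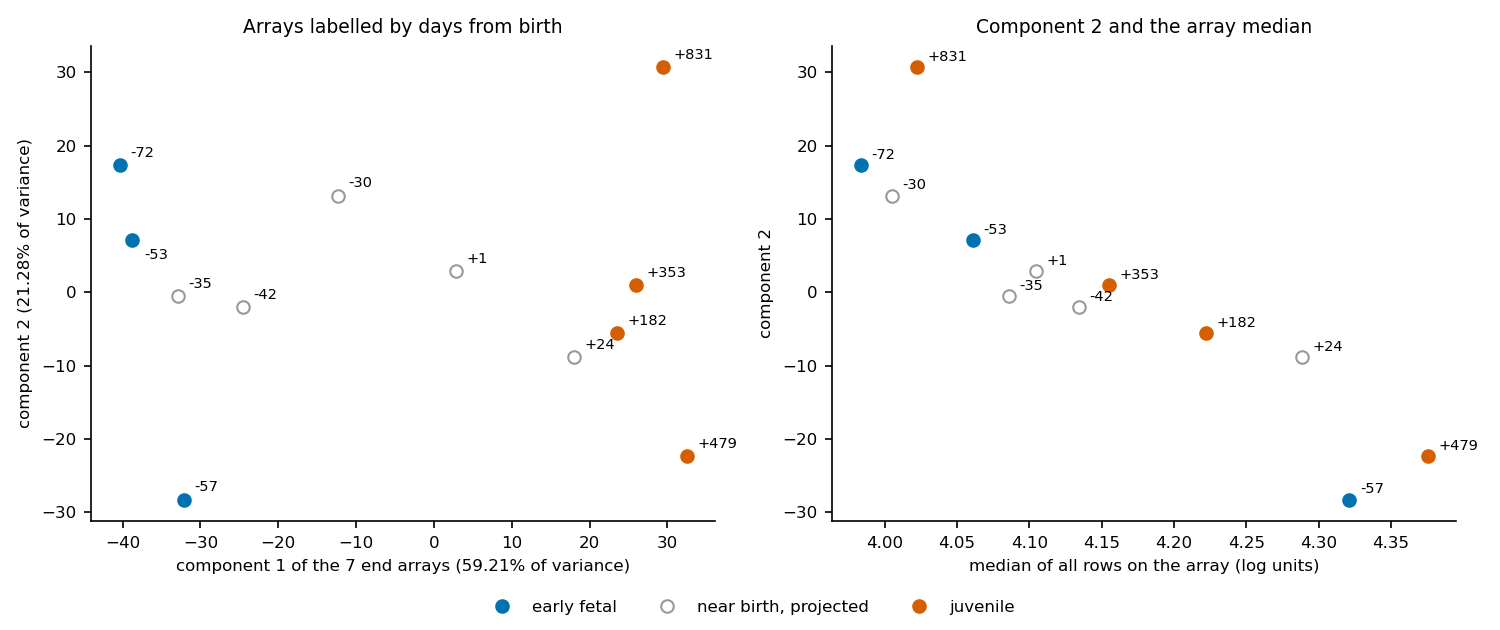
Left, the 12 arrays on the first (59.2% of variance) and second (21.3%) principal components of the 7 end arrays, labelled by days before (-) or after (+) birth; open points are arrays near birth, projected. Right, the second component against the median of all rows on each array; arrays of high median lie low and those of low median high.

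For each called row, the distance from the early fetal mean (0%) to the juvenile mean (100%) gave a scale on which the arrays near birth could be placed. The median position over called rows was 6.72% at 35 days before birth, 19.2% at 42 days before, 41.6% at 30 days before, 61.8% at 1 day and 85.3% at 24 days of age. At 24 days of age the rows that rose stood at 92.9% and those that fell at 72.1%, while at 30 days before birth the rows that rose stood at 32.9% and those that fell at 51.6%. The median of all rows was 4.29 on the 24-day array and 4.01 on that of the 30-day fetus. These positions use values that were not centred on the array median. Whether the array level bears on the gap between rises and falls was not tested. No test was made of these differences, and each age is 1 animal. Among the 662 rows higher by at least 1 log unit, the mean of the newborns lay past 75% of the span in 351, between 25% and 75% in 299 and under 25% in 12, and it passed the juvenile mean in 81. Among the 399 lower rows the counts were 157, 225 and 17, and 30 passed the juvenile mean. The mean of the 3 later fetuses had passed the midpoint of the span in 46 higher rows and 30 lower rows.

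Single genes stood at different positions on these arrays, and each position is that of 1 animal. RGS4 was at 9.17 in the 30-day fetus, 90.8% of its way, NRN1 at 65.0% and ALDH1A1 at 67.0%. At 42 and 35 days before birth RGS4 stood at 54.3% and 5.17% and NRN1 at 17.05% and -23.4%. ALDH1A1 stood at 26.7% and -6.98%, so position did not follow age among these fetuses. MBP stood at 3.31% at 30 days before birth, 60.7% at 1 day and 106% at 24 days. PDYN went from 23.8% at 30 days before birth to 76.8% at 1 day. CRYAB was late, with 31.8% at 1 day and 45.2% at 24 days. Of the falls, LPL was already at 110% at 30 days before birth, whereas DPYSL5 was at 18.6%, then 44.8% and 54.7% in the newborns, and RPRM was at 37.2%, 57.0% and 49.8%.

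List scores, the mean of a list's centred members on each array, also differed in position. The myelin score stood at -2.06% of its span at 30 days before birth, 46.2% at 1 day and 112% at 24 days, and the astrocyte score at 48.0%, 65.3% and 93.5%. Immediate early genes went from 29.4% to 115% and 121%, so both newborns stood above the juvenile mean. Synaptic vesicle genes were at 52.8%, 64.8% and 102%, and genes of immature neurons at 40.2%, 59.8% and 70.7%, still short of the juvenile mean. Complement and interferon genes were at 0.33% at 30 days before birth and 34.2% at 1 day, then 92.0% at 24 days.

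**Figure D5:**
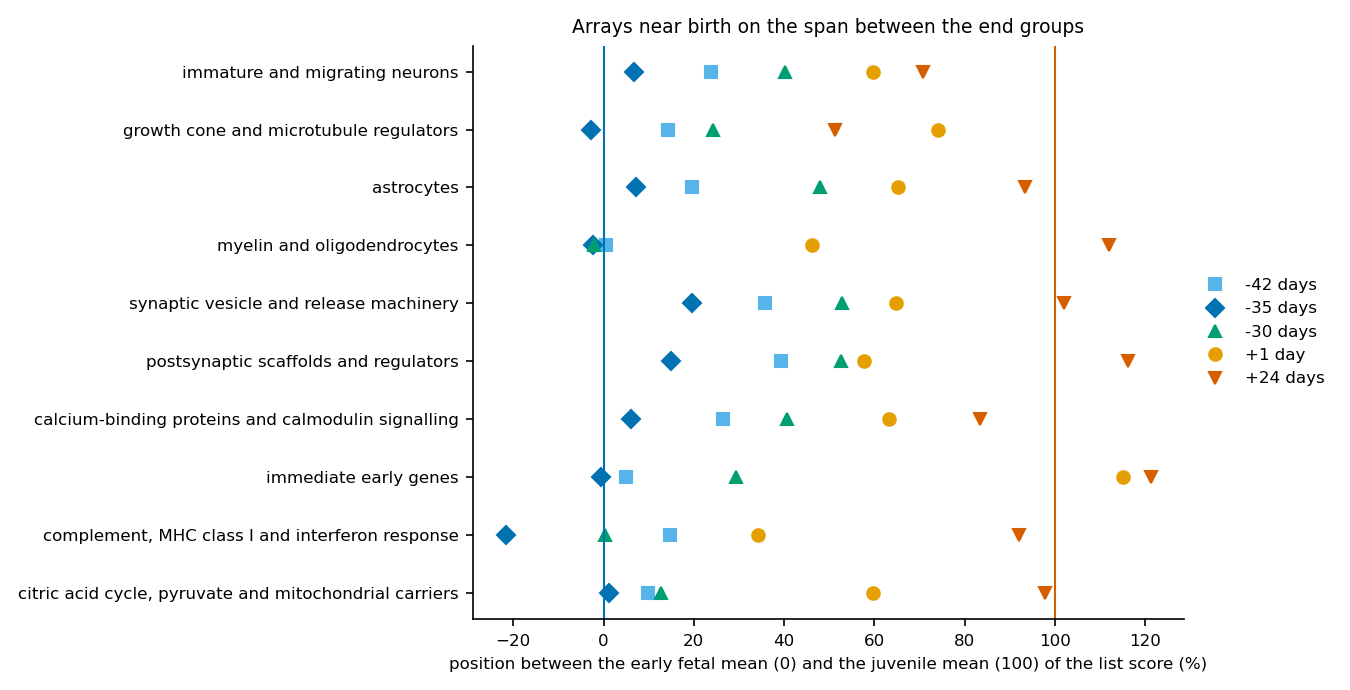
Position of each of the 5 arrays near birth on the span from the early fetal mean (0%) to the juvenile mean (100%) of the score of 10 gene lists; each symbol is 1 animal. Myelin and complement genes of the 30-day fetus lie near 0%, while synaptic genes of the same animal lie near the middle of the span.

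Within the juvenile group the animals differed too. In the 662 rows higher by at least 1 log unit the 479-day juvenile was the farthest from the fetuses in 363 (54.8%) and the 831-day juvenile the nearest in 248 (37.5%); after each array was centred on its median the figures were 182 (27.5%) and 156 (23.6%), and the 182-day juvenile became the most frequent nearest animal (231 rows, 34.9%). In the 399 lower rows the 182-day juvenile was the nearest to the fetuses most often both as deposited (159 rows, 39.8%) and after centring (158 rows, 39.6%). The myelin score of the juveniles was 0.23 at 182 days, 0.79 at 353, 1.16 at 479 and 0.39 at 831 days, and that of immature neuron genes -0.34, -0.62, -0.58 and -0.91. The score of astrocyte genes was 0.56, 0.53, 0.64 and 0.91, highest in the oldest. With 1 animal at each age no order within the group could be tested.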

How the data were processed

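The 12 arrays carry 1 animal each, grouped by the ages on the labels; 3 early fetal and 4 juvenile arrays were compared. The authors deposited log values per row, read here as log2; the base is not stated, and for background correction, normalisation and the choice of rows nothing is given in the sources used here. Values were used as deposited. Gene names came from GEO's platform annotation: 8848 of 9630 rows had 1 symbol, 229 several and 553 none, and 8546 genes matched RefSeq's macaque gene table. A gene with several rows was represented by its brightest row. The 7 arrays were fitted with limma 3.58.1 in R 4.3.3 (lmFit, eBayes), with Benjamini-Hochberg adjustment over all rows and a threshold of 0.05. Arrays give no depth; the number of animals limits precision, and 3 against 4 allows an exact permutation p of no less than 0.0571. On simulated data of 9630 rows with 200 changed, the fit recovered 2%, 56%, 94% and 100% of shifts of 0.5, 1, 2 and 3 log units, with 7 false calls of 133. The simulation drew independent noise for each row, with no shift shared by the rows of an array. It also changed fewer rows than were called here, so its rates may not hold for these data.

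Genes were named by rule: the 12 largest rises and falls among called rows without overlap, the 3 smallest adjusted p in each direction, the 3 largest called members of each list and its largest called member of the opposite direction (or, with none called, the smallest p), both genes of each pair, and the whole lists of myelin, glutamate receptor, GABA and immediate early genes. This gave 272 genes, and 125 more were picked with their values in view. The comparison, lists and pairs were chosen with earlier results of these data known. Alternatives were quantile normalization, median centring, removal of the dimmest 25% of rows, a floor at each array's 20th percentile, a trended robust prior, array weights, a fit of all 12 arrays, the mean of a gene's rows, removal of each array, and removal of the 53-day fetus with the 182-day juvenile. A further alternative, leaving out both arrays of highest median, was chosen after seeing the data.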

Additional observations from a re-analysis of the deposited data

Results flagged for a closer look

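Of 451 groups of 4 juveniles examined, nearly all of them values of named genes or list scores, 31 (6.87%) held 1 outlying animal. The gap from that animal to its nearest neighbour passed Dixon's limit for the share of the group's range. By chance alone about 5% would do so. The 831-day juvenile was that animal in 11, the 479-day and the 182-day juvenile in 8 each and the 353-day juvenile in 4. Each value is a log value, followed by the range of the other 3 juveniles.

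In the oldest juvenile, whose array had the lowest median of its group (4.02), several genes stood low. Of these, FOSB and CYP26A1 lay under the array's 20th percentile in every juvenile. NPY read 3.85 (5.45 to 5.62), KLHL1 3.67 (5.04 to 5.27), SCN3A 4.51 (5.28 to 5.37), ZEB2 4.31 (5.36 to 5.54), HTR1E 2.91 (3.59 to 3.72), FOSB 1.49 (2.31 to 2.44) and CYP26A1 0.88 (2.28 to 2.46). The same animal stood high in CBLN4, a synaptic organiser, at 5.81 (3.54 to 3.92), in ALDOC at 9.29 (8.72 to 8.78), in PTPRZ1 at 6.90 (6.46 to 6.52) and in NLGN1 at 6.11 (5.80 to 5.82).

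The 479-day juvenile, whose array had the highest median, stood high in all 8 of its genes. CNP, a myelin enzyme, read 5.94 (4.99 to 5.08), SHANK3 4.2 (3.31 to 3.43), DOC2A 3.94 (3.29 to 3.40), MEF2D 5.46 (5.18 to 5.22), HDAC11 4.33 (3.76 to 3.81), ENO2 7.03 (6.73 to 6.75), ACTL6A 3.35 (2.62 to 2.73) and TRIM67 3.08 (1.87 to 2.05).

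In the youngest juvenile CRYAB was low at 5.01 (5.97 to 6.16), IFIT1 at 3.63 (4.76 to 4.86) and VCAN at 3.44 (4.21 to 4.31). It was high in NDUFS1 at 7.58 (7.02 to 7.12), in the vascular receptor FLT1 at 4.61 (3.93 to 4.02), in GABRA5 at 7.35 (6.80 to 6.88) and in PLK2 at 7.73 (7.48 to 7.51), and its score of proteasome and ubiquitin genes was 0.123 (0.0173 to 0.0349). The 353-day juvenile was low in GABRB2 at 6.37 (6.5 to 6.51), in NETO1 at 5.74 (6.18 to 6.28) and in FASN at 5.21 (5.30 to 5.32), and high in SST at 6.35 (6.05 to 6.09). The causes were not tested.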

How the results depend on the processing

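Leaving out 1 array moved the count of called rows between 1504 and 2540, of higher rows between 845 and 1756 and of lower rows between 659 and 1019, and the count of rows without overlap on the higher side between 1843 and 3142. Lower rows numbered 1799 under quantile normalization and 1721 under array median centring. Array weights gave 4649 called rows, 2916 higher and 1733 lower. Leaving out both the 53-day fetus and the 182-day juvenile gave 1052, 591 higher and 461 lower, in a fit of 2 fetuses against 3 juveniles. Without the highest-median array of each group 5356 rows did not overlap, 3209 of them on the higher side, with fewer arrays to overlap. Over 397 named genes, 6152 of 6679 alternative values kept direction and side of the threshold, 426 lost the call, 99 gained it and 2 reversed: HCN3 and TOP2A, whose values all lie at the 20th percentile floor, both read 0.10 there (adjusted p = 0.73). In 240 genes no alternative changed the call. Of 898 list medians under alternatives 853 moved by less than the spread between animals, 45 moved further and 47 changed sign. No paired analysis was possible because replicate numbers were given in accession order and pair no animals. The number of animals and signal near the bottom of the scale limit what is shown, and the causes of these shifts were not tested.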
